A study of Mus musculus with 16 samples.

Results

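The amino acid transporter families examined here are the genes whose symbols place them in solute carrier families SLC1, SLC3, SLC6, SLC7, SLC36, SLC38 or SLC43. They numbered 61 of the 18850 named genes on the array, and each was measured by a single probe set. All were found under the same symbol in RefSeq. Slc7a6os was included by its symbol alone and is not a transporter gene. Of the 61 genes, 39 were tested and 22 were set aside as dim. A gene was tested when its log2 signal exceeded the 40th percentile of its array, which lay between 6.40 and 6.56, on at least 4 of the 16 arrays. A gene that is bright in only one group passes that filter because of that group, so counts below refer to the 39 tested genes and not to all 61.

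The arrays profiled RNA from colon organoids, which are cultured balls of mouse colon epithelium, kept in ENR medium. The 4 groups of 4 arrays crossed genotype with tumour necrosis factor alpha (TNFa), an inflammatory cytokine, at 50 ng/ml for 12 h: wild type (WT), WT + TNFa, mutant and mutant + TNFa. The mutant titles read ATF2/7 fl, their descriptions give ATF2 KO with ATF7 floxed, and their genotype field reads ATF2 fl/fl / ATF7 KO, so the allele states conflict. The sources used here do not give whether a floxed allele was recombined, or by what Cre, nor the age of the mice and the number of animals or cultures. The p-values therefore measure only the spread between these samples, which may be technical. Arrays are named by group and by the number in their title.

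Amino acid carriers of the gut epithelium move amino acids across the brush border, exchange them across the basolateral membrane and release them from lysosomes. SLC3 proteins are heavy chains that bring SLC7 light chains to the cell surface, and the pair works as one exchanger. SLC6 carriers run on sodium and, for many, chloride. Some SLC36 carriers run on protons, and several SLC38 carriers take up glutamine with sodium. SLC1 holds the glutamate carriers and the neutral amino acid exchangers, and SLC43 includes carriers of large neutral amino acids, though not every member is one. In many cell types amino acid shortage raises several of these genes through the transcription factor ATF4, which binds C/EBP-ATF response elements (CARE). ATF2 and ATF7 are related factors that bind cyclic AMP response elements (CRE) and, as dimers with JUN, similar sites.

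Promoters are shown for the 4 genes with a called genotype effect in which one of the searched motifs was found. Each sequence runs from 250 bases before the start site to 10 bases after it, is read 5′ to 3′ on the gene's strand, and comes from RefSeq on GRCm38.p6. Capitals mark the motif match. The windows are Slc6a14 at chrX:21714650-21714909 (+), Slc3a1 at chr17:85028097-85028356 (+), Slc1a4 at chr11:20332704-20332963 (-) and Slc36a1 at chr11:55204090-55204349 (+).
Slc6a14: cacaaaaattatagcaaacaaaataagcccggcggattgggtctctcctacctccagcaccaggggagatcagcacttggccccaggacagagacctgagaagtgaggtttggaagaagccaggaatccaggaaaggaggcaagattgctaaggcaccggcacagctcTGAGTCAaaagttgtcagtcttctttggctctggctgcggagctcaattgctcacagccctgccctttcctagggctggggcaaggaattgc
Slc3a1: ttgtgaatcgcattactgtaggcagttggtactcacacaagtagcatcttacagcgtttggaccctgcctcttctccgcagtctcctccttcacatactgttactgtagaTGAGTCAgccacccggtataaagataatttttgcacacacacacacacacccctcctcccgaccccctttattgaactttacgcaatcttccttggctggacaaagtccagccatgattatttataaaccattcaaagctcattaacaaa
Slc1a4: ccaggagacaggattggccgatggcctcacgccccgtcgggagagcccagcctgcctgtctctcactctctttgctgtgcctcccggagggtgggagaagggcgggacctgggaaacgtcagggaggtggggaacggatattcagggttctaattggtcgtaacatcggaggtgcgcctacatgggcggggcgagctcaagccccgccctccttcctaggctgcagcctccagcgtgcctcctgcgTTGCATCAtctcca
Slc36a1: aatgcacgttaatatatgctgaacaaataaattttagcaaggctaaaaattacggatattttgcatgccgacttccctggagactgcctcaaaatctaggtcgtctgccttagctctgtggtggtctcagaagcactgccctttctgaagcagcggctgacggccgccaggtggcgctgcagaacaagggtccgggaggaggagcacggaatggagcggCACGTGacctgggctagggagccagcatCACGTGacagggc
Slc6a14 and Slc3a1 each held TGAGTCA, a match to the AP-1 motif TGANTCA, at 82 and 140 bases before the start. Slc1a4 held TTGCATCA, the reverse complement of a match to the CARE motif TGATGNAA, at 4 bases before the start. Slc36a1 held the E-box CACGTG at 31 and at 3 bases before the start. Both strands of 300-base windows were searched. Among all 32851 RefSeq promoter windows, 7.81% held TGANTCA, 3.97% TGATGNAA, 7.15% CACGTG and 1.79% the full CRE TGACGTCA. Of the 65 windows of 44 transporter genes, 12 of which have more than 1, 9 held TGANTCA, 5 TGATGNAA, 8 CACGTG and 1 TGACGTCA. Counted by gene, 2 of the 8 called genes with a window held TGANTCA, 1 TGATGNAA, 1 CACGTG and 0 TGACGTCA. The motifs were chosen after these promoters had been read, and a match describes letters, not binding.

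Array medians lay between 7.02 and 7.11 log2. WT + TNFa 2 had the highest, and its mean correlation with its group was 0.988 against 0.993 for the group's other arrays. Atf2 signal lay between 10.03 and 10.33 on all 16 arrays, with a genotype difference of -0.02 without TNFa and -0.06 with it (limma adjusted p 0.942 and 0.729). Where this probe set lies relative to the altered exons is not known, so it does not check the labels. Atf7 was not analysed here. All 8 epithelial markers on the array were above the dim level on all 16 arrays, while 4 of 4 endothelial, 3 of 5 immune and 4 of 7 fibroblast and smooth muscle markers were above it on none. Among the other fibroblast and smooth muscle markers, Col1a1 (7.76 to 8.27 log2) and Vim (6.80 to 7.34) were above it on all 16 arrays. These are bulk samples, in which fewer cells of a type and less RNA per cell cannot be told apart.

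TNFa lowered 5 and raised 2 of the 39 tested transporter genes in WT organoids. The 5 that fell were the lysosomal and brush-border carrier Slc36a1, the creatine carrier Slc6a8, the glutamine carrier Slc38a1, the serotonin carrier Slc6a4 and the brush-border neutral amino acid carrier Slc6a19. Slc6a20a, which carries proline, and Slc6a18, a relative of Slc6a19, rose. A gene was called at a Benjamini-Hochberg adjusted p under 0.05 in limma over all 11766 genes tested. The 7 calls were 17.9% of the tested members. Over all genes 10.8% were called, 5.03% up and 5.75% down. The median member change was -0.03 log2, against 0.01 for all genes.

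In mutant organoids TNFa raised Slc6a14 and Slc6a20a and lowered Slc36a1 and Slc7a4. These 4 calls, 2 in each direction, were 10.3% of the 39, where 5.98% of all genes were called, 3.51% up and 2.47% down. The median member change was -0.04 log2 against 0.01 for all genes. Slc36a1 and Slc6a20a were called in both genotypes, each in the same direction. The count of 4 became 2 without mutant 2 or mutant + TNFa 4 and 1 without mutant + TNFa 1.

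**Figure D1:**
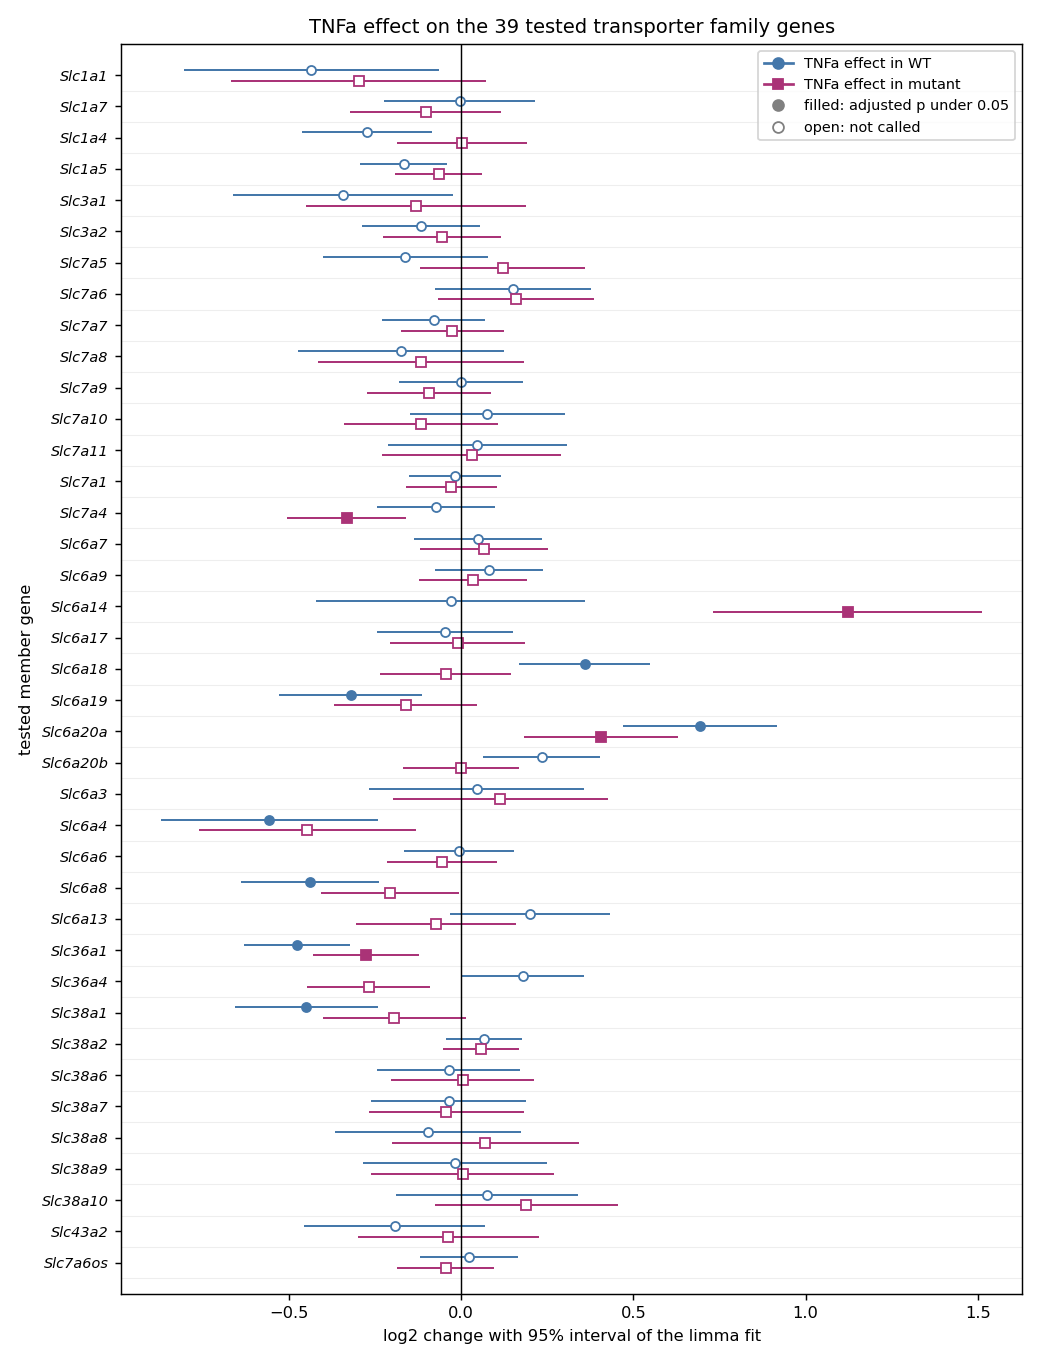
Log2 change with TNFa (x axis) and its 95% interval for each of the 39 tested genes (y axis), in WT (circles) and mutant organoids (squares), filled where called. Slc6a14 in the mutant lies farthest right at 1.12 log2, and Slc6a4 in WT farthest left at -0.56 log2.

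Without TNFa, mutant organoids had lower Slc6a14, Slc3a1 and Slc1a4 and higher Slc36a4 and Slc36a1 than WT. These 5 calls were 12.8% of the 39 tested members, where 2.48% of all genes were called, 1% up and 1.48% down. With TNFa in both genotypes, Slc36a1 was higher and Slc3a1 lower in the mutant. These 2 calls were 5.13% of the members, where 2.69% of all genes were called, 1.56% up and 1.13% down. Median member changes were -0.03 and -0.04 log2, against -0.01 and -0.00 for all genes. The second count became 1 without any 1 of WT + TNFa 1, WT + TNFa 2, WT + TNFa 4, mutant + TNFa 1 and mutant + TNFa 2. The comparisons share arrays: the genotype effect without TNFa and the TNFa effect in WT both rest on the 4 WT arrays.

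**Figure D2:**
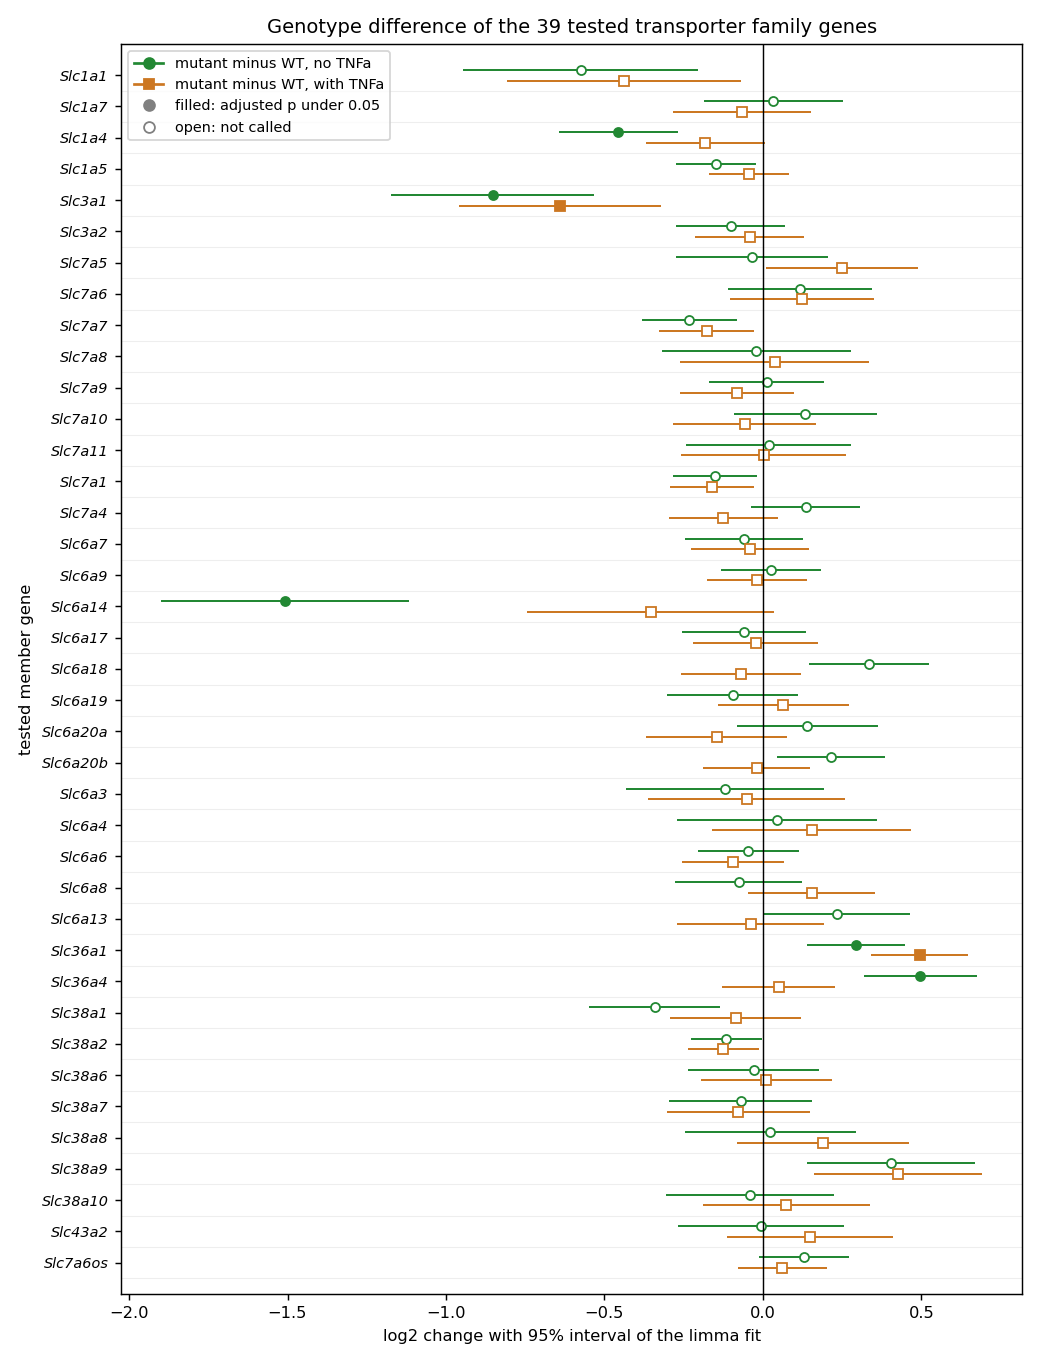
Log2 difference, mutant minus WT (x axis), and its 95% interval for the 39 tested genes (y axis), without and with TNFa, filled where called. Slc6a14 without TNFa lies farthest left at -1.51 log2, and Slc3a1 and Slc36a1 are filled under both conditions.

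In all, 12 of the 39 were called in at least 1 of the 5 comparisons (30.8%, against 14.5% of all genes). The fifth comparison, the difference between the TNFa effects of the 2 genotypes, called 0 members and 1 of all genes (0.0085%). At an unadjusted p under 0.05 it held 5 members and 7.27% of all genes, and the smallest adjusted p of a member was 0.275, for Slc6a14. A TNFa effect called in one genotype alone is therefore not shown to differ between them.

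**Figure D3:**
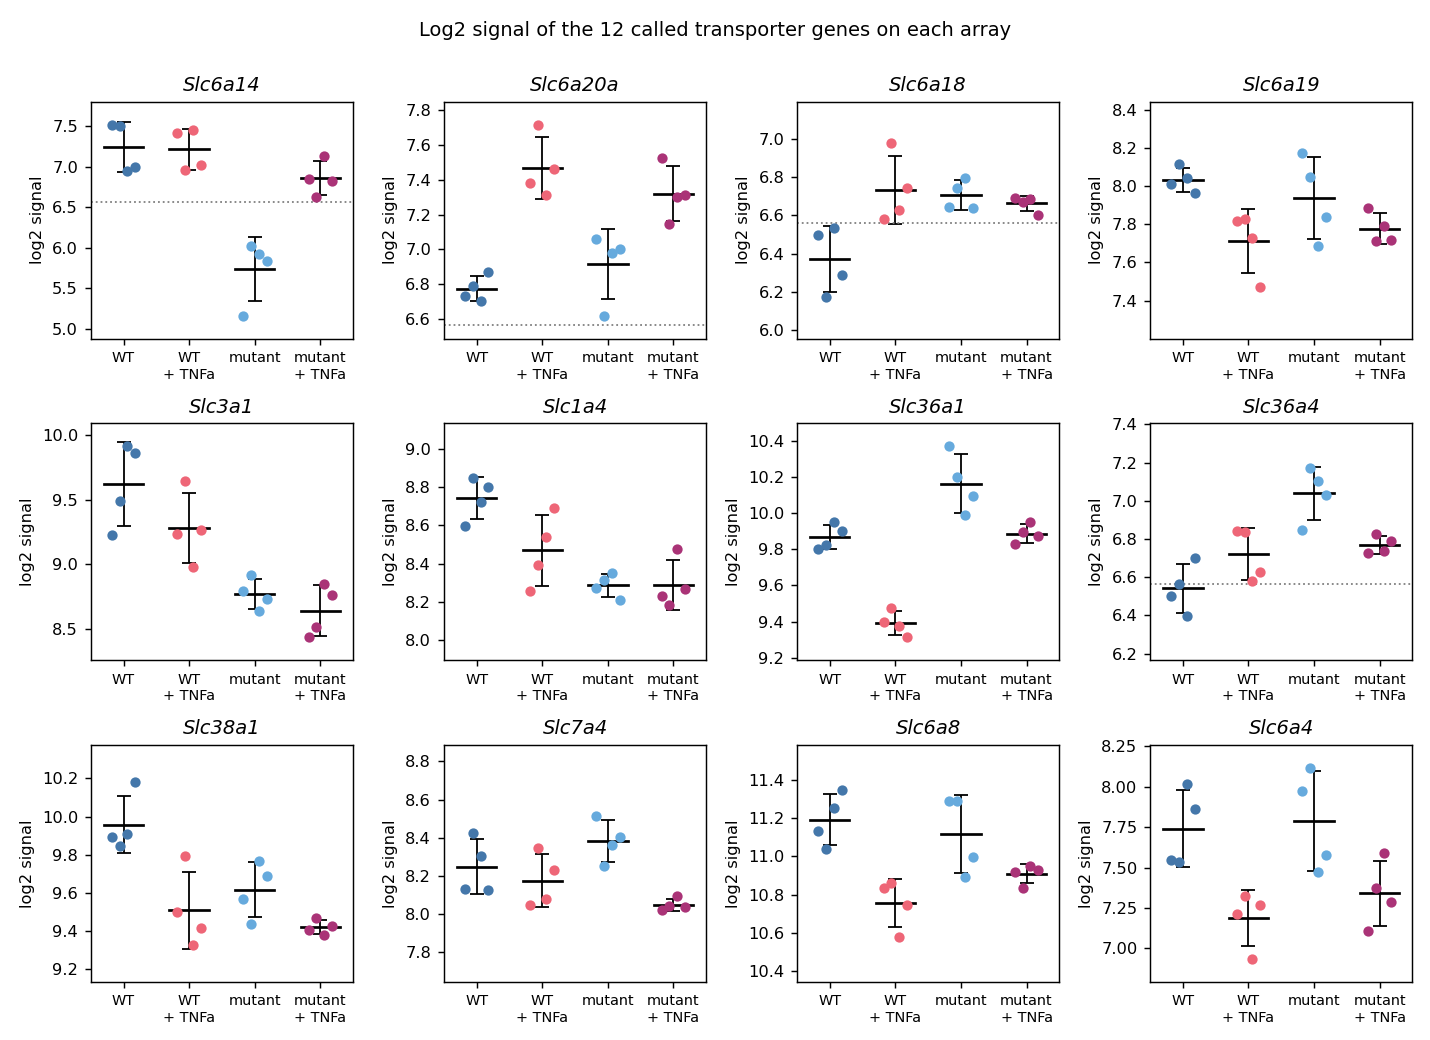
Log2 signal (y axis, scaled separately in each panel) of the genes called in at least 1 comparison, 1 point per array in each of the 4 groups, with group mean and SD. The dotted line, where drawn, is 6.56 log2, the highest 40th percentile of any array, and the 4 mutant arrays of Slc6a14 all lie under it.

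Slc6a14 encodes a carrier of broad range that takes up neutral and cationic amino acids with sodium and chloride. In WT organoids its log2 signal was 7.52, 7.50, 6.95 and 7.00 in replicates 1 to 4, and with TNFa 7.41, 6.96, 7.45 and 7.03. In mutant organoids it was 5.16, 6.02, 5.93 and 5.84, and with TNFa 6.86, 6.62, 7.14 and 6.82. The 4 mutant arrays without TNFa were the lowest of the 16 and overlapped no other group, while the other 3 groups overlapped. The difference between mutant and WT without TNFa was -1.51 log2 (SE 0.18, 2.84-fold lower, adjusted p 0.000106). Its mean there, 5.74 ± 0.39 (SD, n = 4), was in the dim range, so that fold is approximate. TNFa raised it in the mutant by 1.12 log2 (SE 0.18, 2.18-fold, adjusted p 0.000782). In WT the TNFa change was -0.03 log2 (95% interval -0.42 to 0.36, adjusted p 0.949). With TNFa in both genotypes the difference was -0.35 log2 (adjusted p 0.418). The 2 TNFa effects differed by 1.15 log2, with an unadjusted 95% interval of 0.60 to 1.70, and the difference was not called (adjusted p 0.275). Both calls held without each array in turn. Slc6a14 is left untested by the stricter 60th-percentile filter.

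Markers of several epithelial cell types moved with TNFa in the mutant, but none of 8 goblet cell and 4 stem cell markers was called there. The mean of 4 Paneth cell markers was 8.21 to 8.76 log2 in mutant arrays and 9.37 to 9.88 in mutant + TNFa arrays, with 3 of 4 called up. The same mean was 8.24 to 8.78 in WT and 8.76 to 9.05 in WT + TNFa, with 2 called up and 1 down. The mean of 6 enteroendocrine markers was 8.41 to 8.49 in the mutant and 8.75 to 9.08 with TNFa, with 3 of 6 called up. With TNFa in WT 1 of the 6 was called up and 2 down. The mean of 6 absorptive colonocyte markers was 11.52 to 11.76 in the mutant and 11.79 to 11.87 with TNFa, with 1 called up. It was 11.68 to 11.81 in WT and 11.91 to 12.01 in WT + TNFa, with 2 called up. Between genotypes without TNFa, 1 Paneth cell marker was called, down in the mutant, and no enteroendocrine or absorptive colonocyte marker. In that comparison 1 of the 8 general epithelial markers was also called down. With TNFa in both genotypes, 3 of 4 Paneth cell and 5 of 6 enteroendocrine markers were called higher in the mutant. The part of these cell types in the Slc6a14 changes was not tested.

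The proline carrier gene Slc6a20a read 6.73, 6.79, 6.70 and 6.87 log2 in WT and 7.38, 7.72, 7.31 and 7.46 in WT + TNFa. The mutant arrays read 7.06, 6.62, 6.98 and 7.00, and with TNFa 7.53, 7.15, 7.30 and 7.31. Treated and untreated arrays did not overlap in either genotype. TNFa raised it by 0.69 log2 in WT (SE 0.10, 1.62-fold, adjusted p 0.000234) and by 0.41 in the mutant (1.33-fold, adjusted p 0.0251). The mutant call was lost without any 1 of mutant 2, mutant + TNFa 1, mutant + TNFa 3 and mutant + TNFa 4 (adjusted p 0.0571 to 0.102). The effects differed by -0.29 log2 (adjusted p 0.727). Its neighbour and close copy Slc6a20b changed by 0.23 in WT (adjusted p 0.0682) and -0.00 in the mutant (adjusted p 0.999), neither called. How far the 2 probe sets read each other's transcripts is not known.

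Slc6a18 and Slc6a19 are neighbours on the chromosome and encode related brush-border carriers of neutral amino acids. Slc6a18 read 6.50, 6.17, 6.53 and 6.29 log2 in WT and 6.58, 6.98, 6.63 and 6.74 in WT + TNFa. Mutant arrays gave 6.65, 6.74, 6.80 and 6.64, and with TNFa 6.69, 6.67, 6.69 and 6.60. The WT arrays were the lowest of the 4 groups and overlapped none of the others, and their mean was dim. The rise in WT was 0.36 log2 (SE 0.09, 1.28-fold, adjusted p 0.0131), lost without WT 2 (adjusted p 0.051) and with only the 8 WT arrays fitted (adjusted p 0.085). The change in the mutant was -0.04 (adjusted p 0.905). Without TNFa the mutant arrays also read higher than the WT arrays, by 0.33 log2, but that genotype difference was not called. It and the called TNFa rise rest on the same WT arrays.

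Slc6a19 read 8.01, 8.11, 8.04 and 7.96 log2 in WT and 7.82, 7.83, 7.73 and 7.47 in WT + TNFa, with no overlap. Mutant values were 8.17, 8.05, 7.69 and 7.84, and with TNFa 7.88, 7.71, 7.79 and 7.71, with overlap. The signal fell by 0.32 log2 in WT (SE 0.10, 1.25-fold, adjusted p 0.0419). It was the weakest call of the 7 and was lost without any 1 of WT 1, WT 2, WT 3, WT 4, WT + TNFa 3, WT + TNFa 4, mutant + TNFa 2, mutant + TNFa 3 and mutant + TNFa 4 (adjusted p 0.0512 to 0.114). It was also lost with no filter on dim genes and with only the 8 WT arrays fitted (adjusted p 0.0787 and 0.0598). In the mutant the change was -0.16 (adjusted p 0.485). The mean of 6 small intestine enterocyte markers, 2 of them above the dim level on no array, was 7.27 to 7.44 log2 in WT, 7.03 to 7.29 in WT + TNFa, 7.11 to 7.29 in the mutant and 6.97 to 7.16 in mutant + TNFa. One of the 4 tested was called, down with TNFa in WT, and their part in the changes of brush-border carriers was not tested.

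The heavy chain gene Slc3a1, whose protein pairs with the light chain Slc7a9 to take up cystine and cationic amino acids, was lower in the mutant. It read 9.23, 9.49, 9.91 and 9.86 log2 in WT and 8.79, 8.91, 8.64 and 8.73 in the mutant. With TNFa it read 9.24, 9.64, 8.98 and 9.26 in WT and 8.43, 8.52, 8.85 and 8.76 in the mutant. All 8 mutant arrays lay below all 8 WT arrays. The difference was -0.85 log2 without TNFa (SE 0.15, 1.81-fold lower, adjusted p 0.00324) and -0.64 with it (1.56-fold lower, adjusted p 0.0276). The second call was lost without any 1 of WT + TNFa 1, WT + TNFa 2, WT + TNFa 4, mutant + TNFa 1 and mutant + TNFa 2 (adjusted p 0.0518 to 0.102) and with only the 8 TNFa arrays fitted (adjusted p 0.0512). Without WT + TNFa 2, the array that stands apart, that difference was -0.52 log2. TNFa changed Slc3a1 by -0.34 in WT and -0.13 in the mutant (adjusted p 0.171 and 0.805). Its partner Slc7a9 differed between genotypes by 0.01 log2 without TNFa (95% interval -0.17 to 0.19) and -0.08 with it (-0.26 to 0.10), neither called. Slc7a9 signals, 6.58 to 7.08 log2, were near the dim level, which limits the size of change that can be measured.

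The other heavy chain gene, Slc3a2 (CD98), was called in none of the 5 comparisons. Its log2 signal was 10.29, 10.27, 10.12 and 10.08 in WT and 9.97, 9.96, 10.04 and 10.32 in WT + TNFa. Mutant arrays gave 10.01, 10.20, 10.01 and 10.13, and with TNFa 9.96, 10.02, 10.09 and 10.05. The 4 groups overlapped. Its group means were 10.19 ± 0.11 log2 in WT, 10.07 ± 0.17 in WT + TNFa, 10.09 ± 0.09 in the mutant and 10.03 ± 0.06 in mutant + TNFa (SD, n = 4 each). Its TNFa change in WT was -0.12 (95% interval -0.28 to 0.05) and its genotype difference without TNFa -0.10 (-0.27 to 0.07). Of the 10 light chain genes 7 were tested and 0 were called in each comparison. The cystine and glutamate exchanger Slc7a11 changed by 0.05 with TNFa in WT (-0.21 to 0.30) and 0.03 in the mutant (-0.23 to 0.29). Slc7a5, the light chain for large neutral amino acids, changed by -0.16 and 0.12 (-0.40 to 0.07 and -0.12 to 0.36).

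Both tested members of the SLC36 family were higher in the mutant without TNFa. Slc36a1, a carrier of small neutral amino acids at lysosomes and the brush border, was called in all 4 simple comparisons. It read 9.80, 9.83, 9.95 and 9.90 log2 in WT and 9.40, 9.48, 9.38 and 9.31 in WT + TNFa. The values in the mutant were 10.37, 10.20, 9.99 and 10.10, and with TNFa 9.83, 9.90, 9.95 and 9.87. WT + TNFa was the lowest group and the mutant without TNFa the highest, and the pairs compared did not overlap. With TNFa it fell by 0.48 log2 in WT (SE 0.07, 1.39-fold, adjusted p 0.000235) and dropped by 0.28 in the mutant (1.21-fold, adjusted p 0.027). The mutant was higher by 0.29 log2 without TNFa (1.23-fold, adjusted p 0.0365) and by 0.49 with it (1.41-fold, adjusted p 0.000745). The TNFa effects differed by 0.20 (95% interval -0.01 to 0.41, adjusted p 0.721). The TNFa call in WT and the genotype call with TNFa held under every setting tried. The TNFa call in the mutant was lost without any 1 of mutant 1, mutant 2, mutant + TNFa 1, mutant + TNFa 2 and mutant + TNFa 4 (adjusted p 0.0589 to 0.0934). The genotype call without TNFa was lost without any 1 of WT 1, WT 2, WT 4, mutant 1, mutant 2, mutant 4, mutant + TNFa 2 and mutant + TNFa 4 (adjusted p 0.0507 to 0.108). Both were also lost with no filter on dim genes (adjusted p 0.0623 and 0.0775) and with only the 8 arrays compared (0.0647 and 0.112).

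Slc36a4, a carrier of proline and tryptophan, read 6.50, 6.57, 6.40 and 6.70 log2 in WT and 6.84, 6.84, 6.58 and 6.63 in WT + TNFa. Its mutant values were 6.85, 7.17, 7.10 and 7.03, and with TNFa 6.73, 6.83, 6.74 and 6.79. The 4 mutant arrays without TNFa were the highest of the 16. The mutant was higher by 0.50 log2 without TNFa (SE 0.08, 1.41-fold, adjusted p 0.0021), from a WT mean in the dim range. With TNFa the difference was 0.05 (adjusted p 0.855). TNFa changed it by 0.18 in WT and -0.27 in the mutant (adjusted p 0.198 and 0.0703). These effects differed by -0.45 log2 (95% interval -0.69 to -0.20), which was not called (adjusted p 0.345). Slc36a2 and Slc36a3, neighbours of Slc36a1, were too dim to test.

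Among the SLC1 genes, Slc1a4, an exchanger of alanine, serine and cysteine, was lower in the mutant without TNFa. It read 8.60, 8.85, 8.72 and 8.80 log2 in WT and 8.27, 8.31, 8.35 and 8.21 in the mutant. With TNFa it read 8.26, 8.39, 8.54 and 8.69 in WT and 8.23, 8.18, 8.48 and 8.26 in the mutant. The genotypes did not overlap without TNFa and overlapped with it. The difference was -0.46 log2 without TNFa (SE 0.09, 1.37-fold lower, adjusted p 0.00653) and -0.18 with it (adjusted p 0.379). The related glutamine exchanger Slc1a5 differed by -0.15 without TNFa (95% interval -0.27 to -0.02, adjusted p 0.261). The glutamate carrier Slc1a1 had the widest uncalled genotype difference, -0.58 log2 (-0.94 to -0.21, adjusted p 0.106).

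Of the 7 tested SLC38 genes, Slc38a1 was the only one called, and only for TNFa in WT. It read 9.89, 9.85, 9.91 and 10.18 log2 in WT and 9.50, 9.79, 9.33 and 9.42 in WT + TNFa, with no overlap. In the mutant it read 9.57, 9.44, 9.77 and 9.69, and with TNFa 9.41, 9.47, 9.38 and 9.43, with overlap. The signal fell by 0.45 log2 in WT (SE 0.10, 1.37-fold, adjusted p 0.00521), and the change in the mutant was -0.19 (adjusted p 0.354). Its neighbour Slc38a2, the carrier known to rise on amino acid shortage, changed by 0.07 with TNFa in WT (95% interval -0.04 to 0.18) and 0.06 in the mutant (-0.05 to 0.17). Slc38a9, the lysosomal arginine sensor of the mTORC1 pathway, differed between genotypes by 0.40 log2 without TNFa and 0.43 with it (adjusted p 0.117 and 0.0876).

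A pair of SLC6 genes whose substrates are not protein amino acids fell with TNFa in WT. The creatine carrier gene Slc6a8 read 11.13, 11.04, 11.25 and 11.35 log2 in WT and 10.83, 10.86, 10.58 and 10.75 in WT + TNFa. In the mutant it read 11.29, 11.29, 10.89 and 10.99, and with TNFa 10.92, 10.84, 10.95 and 10.93. The groups were apart in WT and overlapped in the mutant. The signal fell by 0.44 log2 in WT (SE 0.09, 1.35-fold, adjusted p 0.00493), and the mutant change was -0.21 (adjusted p 0.283).

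Slc6a4, which clears serotonin into epithelial cells, read 7.55, 7.53, 8.02 and 7.86 log2 in WT and 7.21, 7.33, 6.94 and 7.27 in WT + TNFa. In the mutant it read 7.98, 8.12, 7.47 and 7.58, and with TNFa 7.11, 7.37, 7.59 and 7.29. Again the groups were apart in WT and overlapped in the mutant. The signal fell by 0.56 log2 in WT (SE 0.15, 1.47-fold, adjusted p 0.021), lost without any 1 of WT 3, WT 4 and WT + TNFa 3 (adjusted p 0.0628 to 0.0755). The mutant change was -0.45 (adjusted p 0.0979), and the effects differed by 0.11 (-0.33 to 0.55, adjusted p 0.94).

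Slc7a4, a relative of the cationic amino acid carriers, read 8.51, 8.25, 8.36 and 8.40 log2 in the mutant and 8.02, 8.04, 8.09 and 8.04 in mutant + TNFa, with no overlap. In WT it read 8.13, 8.43, 8.30 and 8.13, and with TNFa 8.05, 8.34, 8.08 and 8.23, with overlap. With TNFa it fell by 0.33 log2 in the mutant (SE 0.08, 1.26-fold, adjusted p 0.0174), a call lost without any 1 of mutant 1 and mutant + TNFa 1 (adjusted p 0.0557 to 0.0677). The WT change was -0.07 (adjusted p 0.65).

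The 27 tested genes never called changed by -0.43 (Slc1a1) to 0.23 log2 (Slc6a20b) with TNFa in WT and by -0.30 (Slc1a1) to 0.19 (Slc38a10) in the mutant. Between genotypes they ranged from -0.58 (Slc1a1) to 0.40 (Slc38a9) without TNFa and from -0.44 (Slc1a1) to 0.43 (Slc38a9) with it. The 95% interval lay within 0.5 log2 of no change for 26 of the 27 in each TNFa comparison and for 25 in each genotype comparison. The 22 untested genes had signals of 3.45 to 6.68 log2. They were Slc1a2 and Slc1a6 of SLC1, Slc6a2, Slc6a5, Slc6a11, Slc6a12, Slc6a15 and Slc6a21 of SLC6, Slc7a2, Slc7a3, Slc7a12, Slc7a13, Slc7a14 and Slc7a15 of SLC7, Slc36a2 and Slc36a3, Slc38a3, Slc38a4, Slc38a5 and Slc38a11, and Slc43a1 and Slc43a3. A dim signal does not show that a gene is silent.

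Genes of amino acid handling outside these families were listed for comparison: 123 genes in 11 lists, with 114 present on the array and 99 of them tested. In WT, TNFa raised 3 and lowered 8 of the 99 (11.1% called, against 10.8% of all genes). In the mutant it raised 3 and lowered 5 (8.08% against 5.98%). Between genotypes 0 were higher and 3 lower without TNFa (3.03% against 2.48%), and 2 were higher and 2 lower with it (4.04% against 2.69%). The difference of TNFa effects called 0. Median changes in the first 4 comparisons were -0.03, -0.03, -0.05 and -0.02 log2.

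Nos2, the inducible enzyme that makes nitric oxide from arginine, had the largest change of the 99. It read 6.29, 6.56, 6.23 and 6.52 log2 in WT and 9.87, 10.19, 10.01 and 10.22 in WT + TNFa, and 5.34, 5.79, 6.51 and 5.72 in the mutant and 10.15, 10.24, 10.03 and 9.90 with TNFa. The untreated means were dim, and treated and untreated arrays were far apart. The rise was 3.67 log2 in WT (12.8-fold, adjusted p 5.36e-10) and 4.24 in the mutant (18.9-fold, adjusted p 7.71e-11). Otc, an enzyme that makes citrulline, fell, with log2 changes of -1.33 in WT and -1.29 in the mutant (adjusted p 6.89e-06 and 1.23e-05), to treated means in the dim range. Of the arginine carriers Slc7a1, Slc7a2 and Slc7a3, only Slc7a1 was tested. It changed by -0.02 in WT (-0.15 to 0.11) and -0.03 in the mutant (-0.16 to 0.10). Other members also serve the uptake of cationic amino acids. Of these, Slc6a14 rose from a dim mean by 1.12 log2 with TNFa in the mutant (adjusted p 0.000782) and was not called in WT. The difference between its TNFa effects was not called (adjusted p 0.275), and uptake was not measured. Slc3a1 changed by -0.34 in WT and -0.13 in the mutant, neither called. Its partner Slc7a9 (0.00 and -0.09) and the light chains Slc7a6 (0.15 and 0.16) and Slc7a7 (-0.08 and -0.02) were not called either.

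Tph1, which starts serotonin synthesis in enteroendocrine cells, rose with TNFa by 0.93 log2 in WT and 1.75 in the mutant (adjusted p 0.000194 and 2.26e-07). With TNFa it was 0.80 higher in the mutant (adjusted p 0.00272). Tph1 is itself one of the 6 enteroendocrine markers, 5 of which were higher in mutant + TNFa than in WT + TNFa. That marker mean was 8.36 to 8.45 log2 in WT and 8.27 to 8.43 in WT + TNFa, against 8.75 to 9.08 in mutant + TNFa, and its part in the Tph1 and Slc6a4 changes was not tested.

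Atf4 was called in none of the 5 comparisons. Its means were 11.11 ± 0.05 log2 in WT, 11.12 ± 0.18 in WT + TNFa, 11.04 ± 0.10 in the mutant and 11.12 ± 0.07 in mutant + TNFa (SD, n = 4). Of 22 tested integrated stress response genes, the list that holds Atf4 and its targets, 0 rose and 4 fell with TNFa in WT (18.2%, against 10.8% of all genes), and 0 rose and 2 fell in the mutant (9.09% against 5.98%). Cth, a cysteine synthesis enzyme, fell in both genotypes, with changes of -0.50 in WT and -0.41 log2 in the mutant (adjusted p 0.000126 and 0.00133). The other mutant call was Ddit3, a stress-induced transcription factor, at -0.30 (adjusted p 0.033), named after its value was seen. It was lost without any 1 of mutant 1, mutant 2, mutant 3, mutant + TNFa 1, mutant + TNFa 2 and mutant + TNFa 4 (adjusted p 0.0524 to 0.125), with no filter on dim genes (0.0702) and with only the 8 mutant arrays fitted (0.0658). The 4 falls in WT were Cth, Ddit3 at -0.42 log2 (adjusted p 0.00214), Chac1 at -0.31 (adjusted p 0.00912) and Cbs at -0.27 (adjusted p 0.0209). The Ddit3 call in WT was kept under every setting tried and without each array in turn. That of Chac1 in WT was lost with only the 8 WT arrays fitted (adjusted p 0.0789). Cbs, which makes cystathionine and was likewise named after its value was seen, lost its call without any 1 of WT 2 and WT 3 (adjusted p 0.068 to 0.0712). Between genotypes 2 were lower in the mutant without TNFa. These were Mthfd2, a mitochondrial folate enzyme, at -0.50 log2 (adjusted p 0.0217), and Chac1, which degrades glutathione, at -0.32 (adjusted p 0.0237). With TNFa 1 was lower, the proline synthesis enzyme Aldh18a1, at -0.27 (adjusted p 0.0111). The Mthfd2 call was lost without any 1 of WT 1, WT 2, WT 3, mutant 1 and mutant 4 (adjusted p 0.0525 to 0.0769), and the Chac1 genotype call without any 1 of WT 2, mutant 1, mutant 2 and mutant 4 (adjusted p 0.0516 to 0.0833).

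Rraga, Bmt2, Oat, Asl, Arg2 and Gclm are named here after their values were seen. Of 28 tested genes of amino acid sensing to mTORC1, 1 rose (Rraga) and 1 fell (Bmt2) with TNFa in WT, 1 fell in the mutant (Bmt2), and 1, Sesn3, was lower in the mutant without TNFa (-0.31, adjusted p 0.0395). Rraga lost its call without any 1 of WT 1, WT 3, WT 4, WT + TNFa 1 and WT + TNFa 3 (adjusted p 0.0591 to 0.0986). Bmt2 lost its call in WT without WT 4 (adjusted p 0.0519) and in the mutant without any 1 of mutant 2, mutant 3, mutant + TNFa 2, mutant + TNFa 3 and mutant + TNFa 4 (adjusted p 0.0559 to 0.0843). The Sesn3 call was lost without any 1 of WT 1, WT 3, WT 4, mutant 1, mutant 2, mutant 3, mutant 4, mutant + TNFa 2 and mutant + TNFa 4 (adjusted p 0.0531 to 0.143). Of 9 arginine, glutamine and polyamine genes, 1 rose and 2 fell in WT (33.3%, against 10.8% of all genes), and 2 rose and 2 fell in the mutant (44.4% against 5.98%). Besides Otc, the fall in WT was that of Oat, at -0.43 log2 (adjusted p 0.00359), a call kept under every setting tried and without each array in turn. Besides Nos2 and Otc the mutant calls were Asl, which makes arginine, at 0.22, and Arg2, an arginase dim in every group, at -0.56 log2. Asl lost its call without any 1 of WT 1, WT 2, WT 3, WT 4, WT + TNFa 1, mutant 1, mutant 3, mutant 4, mutant + TNFa 2, mutant + TNFa 3 and mutant + TNFa 4 (adjusted p 0.0501 to 0.144). Arg2 lost its call without any 1 of WT 2, WT 4, mutant 1, mutant 2, mutant 4, mutant + TNFa 1, mutant + TNFa 2 and mutant + TNFa 4 (adjusted p 0.0515 to 0.137). Of 8 glutathione and cystine genes, 1, Gclm, fell with TNFa in WT, and 1, the brush-border peptidase Anpep, was higher in mutant + TNFa (0.64, adjusted p 0.0144). Gclm lost its call without any 1 of WT 1, WT 4 and WT + TNFa 1 (adjusted p 0.0574 to 0.0806). The Anpep call was lost without any 1 of WT + TNFa 3, mutant + TNFa 1 and mutant + TNFa 2 (adjusted p 0.0502 to 0.0509). Of 10 mitochondrial carriers, 1 was called, Sfxn3, lower in mutant + TNFa (-0.25, adjusted p 0.0112), lost without mutant + TNFa 1 (adjusted p 0.0505). Of the 2 tested tryptophan genes, Tph1 was called as given above. None of the tested peptide and aromatic carriers (3), partner proteins (3), lysosomal carriers (5), vesicular carriers (4) or branched-chain breakdown genes (5) was called.

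Single arrays moved the counts over the 99 genes. The 3 genotype calls without TNFa became 0 without mutant 1 or mutant 4, 1 without WT 1, WT 2, WT 3 or mutant 2, 5 without mutant 3 and 7 without WT + TNFa 2. The 4 genotype calls with TNFa became 2 without mutant + TNFa 1. The 8 TNFa calls in the mutant became 5 without mutant 1, mutant 2 or mutant + TNFa 2 and 4 without mutant + TNFa 4.

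**Figure D4:**
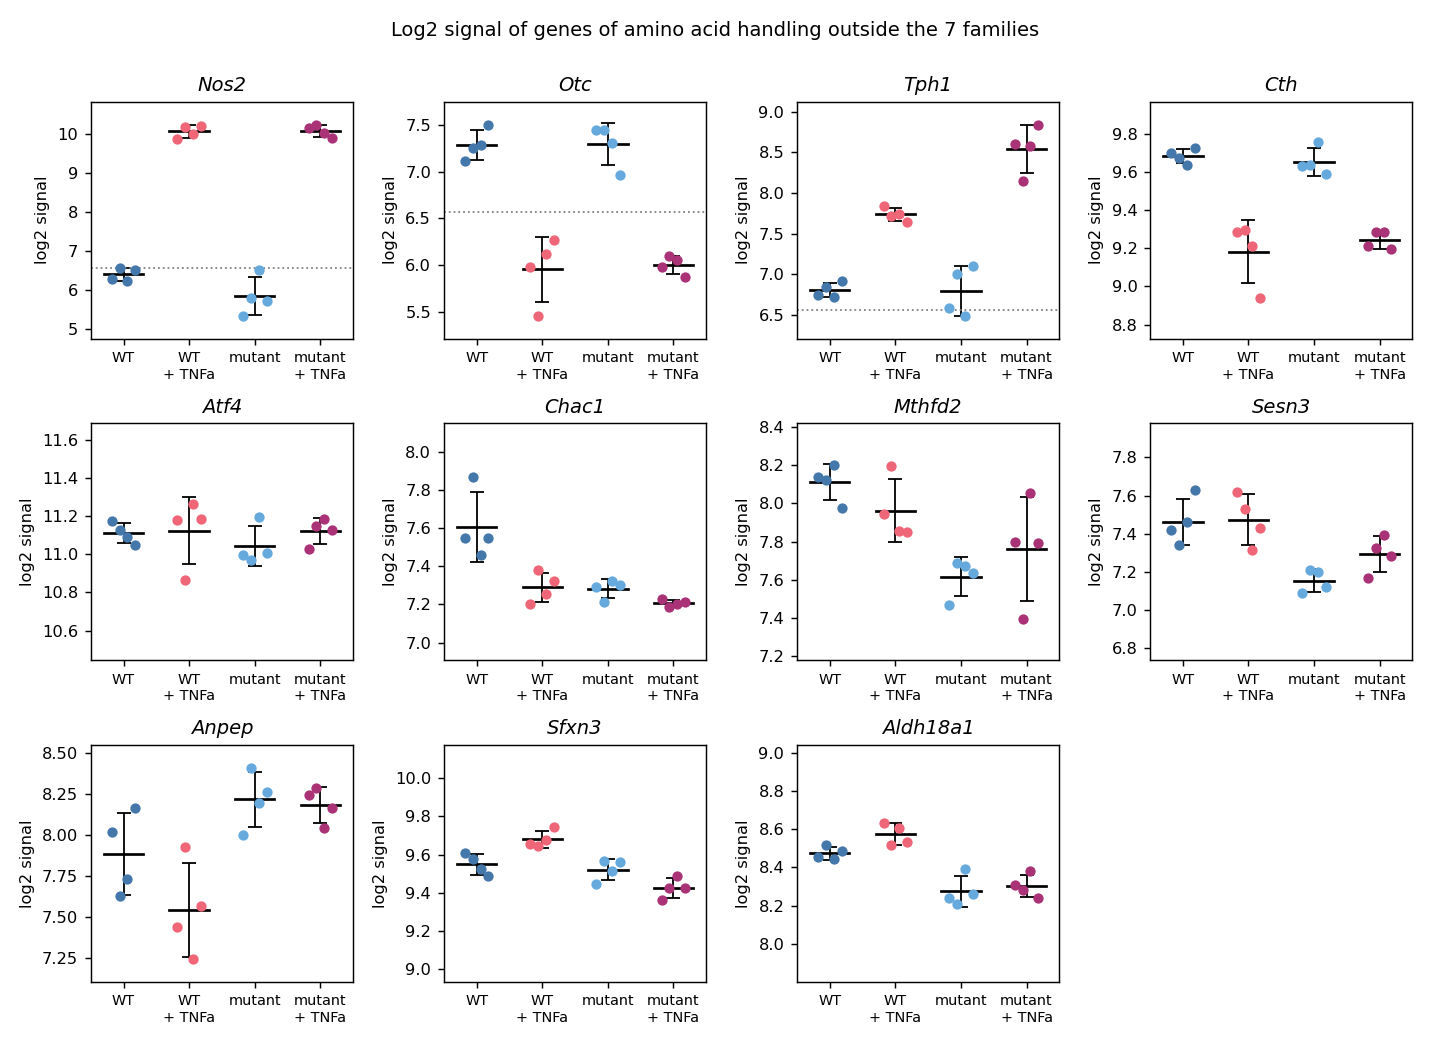
Log2 signal (y axis, scaled separately in each panel) of 11 genes of amino acid handling outside the transporter families, 1 point per array in each of the 4 groups, with group mean and SD. The dotted line is 6.56 log2, the highest 40th percentile of any array. Nos2 rises and Otc falls with TNFa in both genotypes, and the Atf4 groups overlap.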

How the data were processed

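Single-colour Affymetrix arrays measured RNA from 16 samples, 4 in each of 4 groups taken from titles and characteristics. Per the labels' protocols, 400 ng of RNA was amplified and labelled with biotin. The deposited values are log2 signals that the authors computed with RMA in Affymetrix Expression Console, per the submitters' processing notes. The sources used here do not give tool versions, array design or genome build. The number of arrays limits the precision.

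Of 19825 probe sets, 18851 carried 1 symbol, 974 none and 0 several. Each of 18850 genes was represented by its brightest probe set, and no further normalization was applied. Genes above their array's 40th percentile on at least 4 arrays (11766) entered 1 limma fit (limma 3.58.1, R 4.3.3) to all 16 arrays, with moderated tests and Benjamini-Hochberg adjustment over all of them. Errors are the SE of the fit, and intervals cover 95%, unadjusted for the number of genes. The members, gene lists and comparisons were chosen with earlier results of these data known. All called transporter genes were named, together with uncalled partners, neighbours and copies. Of the listed other genes, the 4 called with the smallest p in each comparison and Atf4 were named.

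On simulated arrays of 11766 genes, changes of 0.5 log2 were recovered for 89% of changed genes for TNFa in WT. The share was 85.5% for TNFa in the mutant, 83% for genotype without TNFa and 87.5% for genotype with TNFa. For the difference of TNFa effects it was 51%, and 97.5% for changes of 1 log2. These shares describe the simulated arrays and do not give the sensitivity in the real data. There, the difference of TNFa effects called 1 gene. The Slc6a14 difference of 1.15 log2 was not called (limma adjusted p 0.275). The alternatives were no filter, a 60th-percentile filter, averaging a gene's probe sets, median centring of each array, a second quantile normalization, weights on arrays, robust fitting with a variance trend, fitting only the groups compared, a block for the sample numbers, and leaving out each array.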

Additional observations from a re-analysis of the deposited data

How the results depend on the processing

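Of the 18 called changes of transporter genes, 13 kept their call under each setting in which the gene was tested, other than leaving out an array, 10 kept it without each array in turn, and 10 kept it under both. Those of Slc6a14, Slc6a20a, Slc36a4 and Slc6a18 were not tested with the 60th-percentile filter. The 8 that did not are given with the genes. None reversed. The counts of called members for TNFa in WT, TNFa in the mutant, genotype without TNFa and genotype with TNFa were 7, 4, 5 and 2. With the 60th-percentile filter, which tests 22 members and drops Slc6a14, Slc6a18, Slc6a20a and Slc36a4, the mutant TNFa count became 2 (0 up, 2 down) and the genotype count without TNFa 3 (1 up, 2 down). The WT TNFa count stayed at 7, with 0 up and 7 down in place of 2 and 5. With only the groups compared in the fit, the genotype count with TNFa became 1. Array weights gave 9, 6, 7 and 3. Leaving out an array gave 5 to 9, 1 to 5, 4 to 7 and 1 to 2, and 0 for the difference of TNFa effects, which was 0 under every setting in which it could be fitted. It has no fit with only 2 groups.

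Same-numbered samples did not deviate together: over 24 pairs r ran from -0.31 to 0.28, with 5 over 0.1, and in 10 of 48 searches an array correlated best with its own number in another group. With the replicate block the member counts were 7, 3, 4, 2 and 0. It ended the calls of Slc36a1 for TNFa in the mutant (adjusted p 0.0585) and for genotype without TNFa (0.079), that of Sesn3 for genotype without TNFa (0.091), and those of Ddit3 and Arg2 for TNFa in the mutant (0.0597 and 0.074). It changed no other call of a gene named above.

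Over the 99 other genes of amino acid handling, calls for TNFa in WT fell from 11 to 6 with only the groups compared. For TNFa in the mutant they fell from 8 to 5 with no filter. For genotype without TNFa they went from 3 to 7 with array weights and to 1 with no filter. For genotype with TNFa they went from 4 to 7 with array weights or the 60th-percentile filter and to 2 with only the groups compared. With only the groups compared, Chac1, Sesn3, Aldh18a1 and Sfxn3 lost their genotype calls (adjusted p 0.0933, 0.0508, 0.0586 and 0.0619). Chac1 and Sesn3 lost theirs with no filter too (0.0534 and 0.0808), and Sesn3 with the variance trend (0.0596). Of the TNFa calls, those of Rraga, Bmt2, Chac1, Cbs and Gclm in WT were lost with only the groups compared (0.104, 0.0739, 0.0789, 0.0967 and 0.089). So was that of Asl in the mutant (0.09). With no filter, Rraga and Gclm in WT and Bmt2, Asl and Arg2 in the mutant lost theirs (0.0689, 0.0552, 0.0634, 0.0961 and 0.0714). Cbs in WT lost its call with the variance trend (0.0658). Rescaling moved the median of all genes by at most 0.02 log2. Even so, median centring ended the Rraga call for TNFa in WT (adjusted p 0.0638). The second quantile normalization ended the Asl call for TNFa in the mutant (adjusted p 0.0856). Centring changed the TNFa calls over all genes in WT from 592 up and 677 down to 449 and 775. The cause of these differences was not tested, apart from the genes dropped by the stricter filter. Signals near background, as in Slc6a14, Slc6a18 and Slc36a4, limit the size of change that can be measured.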
